A study of Mus musculus with 9 samples.

Results

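The genes described here are the chemokines and inflammatory cytokines of neonatal mouse aortic valve explants exposed to retinoic acid or to an antagonist of its receptors. Members were every probe set whose single gene symbol was Ccl or Cxcl followed by digits, or Cx3cl1, Il1a, Il1b, Il6, Il11, Il33, Lif, Tnf, Ptgs2, Nos2, Saa3 or Lcn2. The rule also named C3, which was not analysed here. It gave 49 probe sets for 44 symbols among 23397 probe sets tested. Of these, 24 probe sets belonged to 19 CC chemokines, 13 to 13 CXC chemokines and 12 to the 12 other genes. Another 7 chemokine probe sets, shared by several symbols, were left out by the rule.

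Chemokines are small secreted proteins that bind G protein-coupled receptors on leukocytes and other cells and direct their movement. Stromal, endothelial and myeloid cells make many of them, often after activation of NF-kB or of STAT3 by the cytokines listed with them. In heart valves, resident macrophages and interstitial cells express members of these families, and retinoic acid acts through nuclear receptors that can raise or lower transcription.

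The explants came from C57BL/6J pups at postnatal day 1. Each sample pooled valves of 5 to 6 pups, kept on floating filters in medium with serum for 48 hours, and each pool was measured on its own array. The ATRA group received all-trans retinoic acid at 1 µmol/L in DMSO. The LE540 group received LE540, an antagonist of retinoic acid receptors, whose dose and vehicle the labels do not give. The DMSO group received DMSO alone at 0.001%. Each group had 3 arrays. The labels call the pools biological replicates, so the p-values below measure the spread between pools of whole explants, not between single animals. In such bulk tissue, fewer cells of a type and less RNA per cell cannot be told apart.

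Across probe sets, the log2 values of 2 arrays correlated at r = 0.956 to 0.991, and the median intensity of an array was 124 to 128. LE540 replicate 1 stood apart: it lay at 63.7 on the first principal component, which held 32.5% of the variance, and the other arrays lay between -21.5 and 13.9. Differences of the members from the LE540 arrays are therefore also given without it where their unadjusted p was under 0.05, as are the values of named genes and lists set against LE540. With that array left out, 27 of 49 members were higher with LE540 than with DMSO and 31 of 49 higher with ATRA than with LE540, and 0 passed in either comparison. All 8 retinoic acid target genes of a fixed list were higher with ATRA than with DMSO, and 3 of them, Dhrs3, Tgm2 and Cyp26a1, passed the test. With LE540 against DMSO, 5 of the 8 were higher (4 without LE540 replicate 1) and 0 passed. With ATRA against LE540, 6 were higher (7 without that array) and 4 passed, the same 3 and Rarb, a retinoic acid receptor gene, which was 2.82 log2 higher (adjusted p = 0.0595) and 2.43 higher without LE540 replicate 1 (adjusted p = 0.169). Pools also differed in the sex of their pups: the summed intensity of 3 Y-linked genes was 1360, 533 and 1411 on the ATRA arrays, 1127, 213 and 1334 on the LE540 arrays and 259, 110 and 613 on the DMSO arrays. All 3 Y-linked genes were higher with ATRA than with DMSO (median 2.19 log2) and with LE540 than with DMSO (median 1.44, or 0.86 without LE540 replicate 1). They were also higher with ATRA than with LE540 (median 0.70, or 1.14 without LE540 replicate 1). In every comparison 0 passed the test, and the sums of the groups overlapped. The 3 genes read the same quantity, so their shared direction is not separate evidence. Sex make-up may still have differed between the groups. The part of sex make-up in the results was not tested.

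A probe set passed when the limma p, adjusted by Benjamini-Hochberg over all 23397 probe sets, was under 0.1. In the ATRA against DMSO comparison, which asks what added retinoic acid did, 0 of 49 members passed. The background of probe sets that passed was 0.0812%. The alarmin Il33 was 4.27-fold higher and the myeloid chemokine Ccl6 2.29-fold higher on ATRA arrays, with Cxcl16 1.61-fold higher and Cxcl10 1.91-fold lower. These 4 were the members with an unadjusted p under 0.05 (8.16% of members, against 4.7% of all probe sets). In 5 members (10.2%) the arrays of the ATRA and DMSO groups did not overlap, against 11.3% of all probe sets: Ccl6, Cxcl16 and Il33 lay above DMSO, and Cxcl10 and Cxcl11 below.

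In the LE540 against DMSO comparison, which sets the receptor antagonist against DMSO alone, 0 of 49 members passed, against a background of 0.0299%. The T cell chemokine Ccl5 was 8.47-fold higher, the prostaglandin-forming enzyme Ptgs2 3.57-fold, Cxcl10 2.28-fold, the neutrophil chemokine Cxcl2 2.13-fold and the siderophore-binding protein Lcn2 1.62-fold higher, and Cxcl12 was 2.59-fold lower. These were the 6 members with an unadjusted p under 0.05 (12.2%, against 8.8% of all probe sets). Arrays did not overlap in 8 members (16.3%, against 12.6%): Ccl5, Cxcl2, Cxcl11, Cxcl16, Lcn2 and Ptgs2 lay above DMSO, and Cxcl12 and Cxcl17 below.

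The ATRA against LE540 comparison sets the receptor ligand against the receptor antagonist. Here 1 member passed, the interferon-inducible chemokine Cxcl10, which fell 4.35-fold (2.04% of members, against a background of 0.603%). With the replicate number as a block, 3 members passed: Cxcl10, Cxcl2 and Cxcl12. An unadjusted p under 0.05 was found for 12 probe sets of 11 genes (24.5%, against 9.54% of all probe sets). Of these genes, Ccl6, Ccl9, Cxcl12, Cxcl16 and Il33 were higher with ATRA, and Ccl5, Ccl25, Cxcl1, Cxcl2, Cxcl10 and Cxcl11 were lower. Arrays did not overlap for 12 probe sets (24.5%, against 11.5%): Ccl6, Ccl9, Ccl11, Cxcl12 and Il33 lay higher with ATRA, and Ccl17, 1 Ccl25 probe set, Cxcl1, Cxcl2, Cxcl10, Cxcl11 and Ptgs2 lower.

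**Figure D1:**
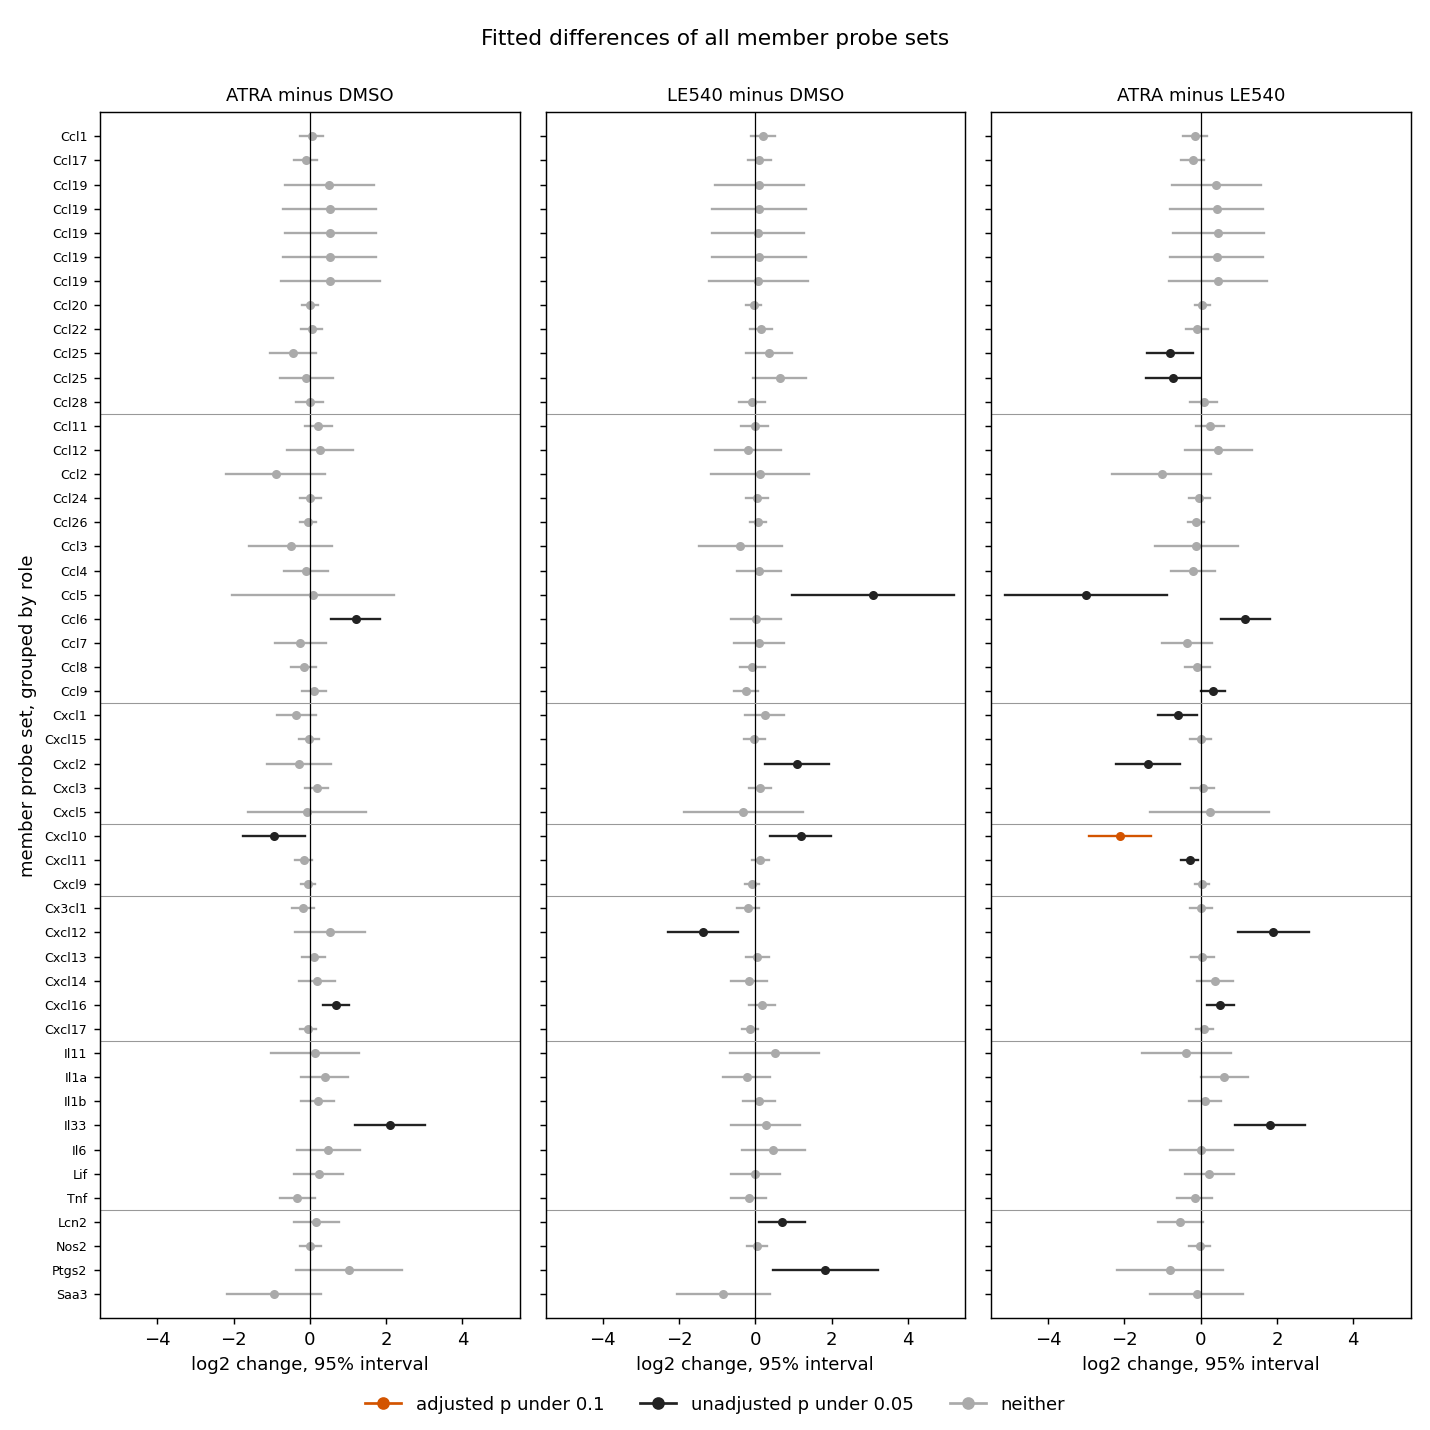
Fitted log2 differences of all 49 member probe sets, grouped by role, with points for the estimate and bars for the 95% interval, in 3 panels for ATRA minus DMSO, LE540 minus DMSO and ATRA minus LE540. The single probe set past the adjusted threshold is Cxcl10 at -2.12 in the ATRA minus LE540 panel, and the widest intervals are those of Ccl5.

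Differences among the members went in either direction. Against DMSO, 28 probe sets were higher and 21 lower with ATRA, and 32 were higher and 17 lower with LE540. Between ATRA and LE540, 25 were higher and 24 lower with ATRA. All 5 Ccl19 probe sets were among the higher in each comparison, so these are counts of probe sets and not of separate genes. The median log2 difference of the members was 0.04 for ATRA minus DMSO, 0.08 for LE540 minus DMSO and 0.01 for ATRA minus LE540, next to -0.01, 0.02 and -0.03 over all tested probe sets. The median size of the difference, without its sign, was 0.21, 0.14 and 0.29 log2 in the members and 0.10, 0.13 and 0.13 over all probe sets. Differences over 2-fold were found for 3 members with ATRA against DMSO (6.12%, and 0.667% of all probe sets), for 5 with LE540 against DMSO (10.2% and 1.23%) and for 7 between ATRA and LE540 (14.3% and 1.94%). The first and second comparisons share the DMSO arrays and the third is their difference, so their values are not independent of each other.

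**Figure D2:**
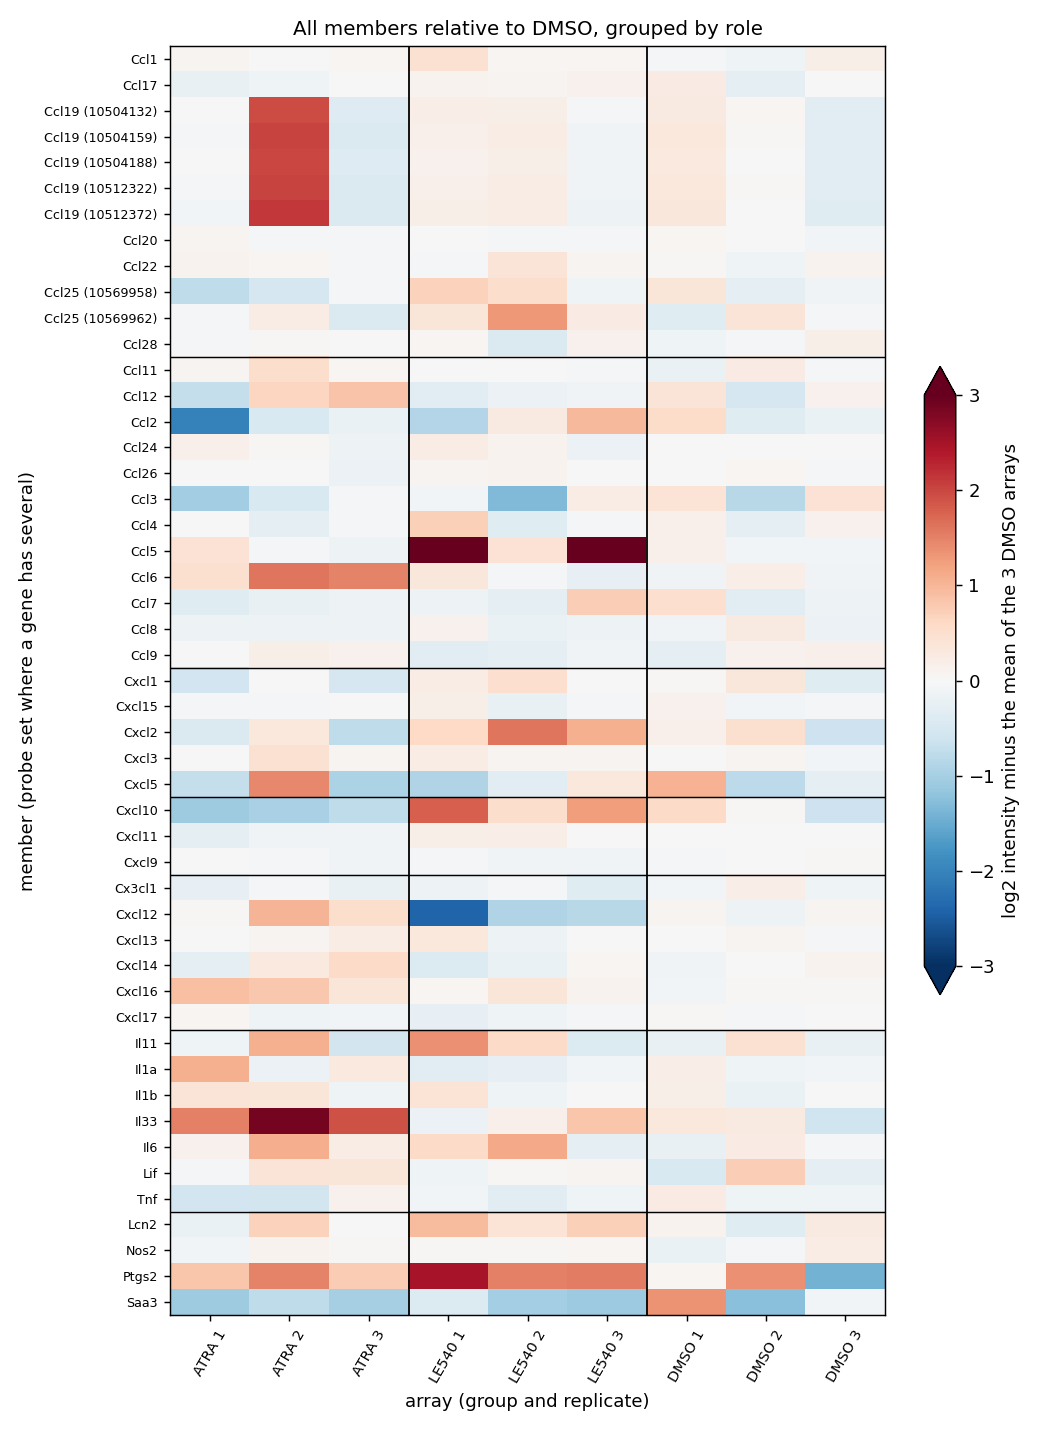
Log2 intensity of every member probe set on each of the 9 arrays, minus the mean of the 3 DMSO arrays, with rows grouped by role and columns by group. Ccl5 on LE540 replicates 1 and 3, Il33 on the ATRA arrays and Cxcl12 on the LE540 arrays stand out, and the colour scale ends at 3 log2 units on either side.

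Cxcl9, Cxcl10 and Cxcl11 are ligands of CXCR3, the receptor of activated T cells and natural killer cells, and interferon gamma induces them. They follow each other on chromosome 5 in the RefSeq gene table. The 250 bases before the start of Cxcl10 (GRCm38.p6, chr5:92348890-92349139, minus strand) are shown because this is the member that passed a test. Capitals mark, in order, the core of an interferon-stimulated response element (GAAANNGAAA) at 213 to 204 bases upstream of the start, and matches to the NF-kB consensus at 159 to 150 and at 103 to 94 bases upstream.
Cxcl10: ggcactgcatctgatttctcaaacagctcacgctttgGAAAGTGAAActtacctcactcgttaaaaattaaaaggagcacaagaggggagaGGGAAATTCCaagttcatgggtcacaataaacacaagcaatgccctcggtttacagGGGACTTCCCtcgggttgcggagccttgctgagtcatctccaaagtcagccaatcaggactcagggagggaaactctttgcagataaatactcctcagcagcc

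Of all 32851 RefSeq mouse promoters of this length, 2.98% held the response element core on either strand and 3.9% held the NF-kB consensus. Among the members, 32 of 44 genes matched the table, with 35 promoters. The core was found in 4 of these 35 (11.43%), those of Ccl19, Cxcl10, Cxcl14 and Saa3. The NF-kB consensus was found in 7 (20.0%), those of Ccl9, Ccl20, Cxcl1, Cxcl2, Cxcl3, Cxcl10 and Il6. The nuclear receptor half-site AGGTCA was found in 10 (28.57%, and 14.02% of all promoters). No member promoter held 2 such half-sites as a direct repeat with 5 bases between them, an arrangement bound by retinoic acid receptors. Only 3 of all 32851 promoters (0.01%) held this exact repeat, so its absence from 35 promoters says nothing particular about the members. The promoters of Cxcl12 and Il33, whose ATRA and LE540 arrays also did not overlap, held no match to these motifs and are not shown. A match is a run of letters and does not show that a factor binds there, and several chemokine genes share ancestry and therefore promoter sequence.

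Cxcl10 (probe set 10531415) had log2 intensities of 6.21, 6.33 and 6.54 on the ATRA arrays, 9.08, 7.82 and 8.55 on the LE540 arrays and 7.87, 7.34 and 6.67 on the DMSO arrays. Every ATRA array lay below every array of the other groups, and the lowest LE540 array lay within the DMSO range. Mean intensity was 82.5 ± 9.55 with ATRA, 379.8 ± 157 with LE540 and 166 ± 66.6 with DMSO (SD, n = 3 each). ATRA minus LE540 was -2.12 log2 (SE 0.36, 95% interval -2.93 to -1.31, adjusted p = 0.0614), and within replicate numbers 1, 2 and 3 it was -2.86, -1.50 and -2.01. LE540 minus DMSO was 1.19 (SE 0.36, adjusted p = 0.497), and 0.89 without LE540 replicate 1 (adjusted p = 0.870). The difference between ATRA and DMSO was -0.93 (SE 0.36, adjusted p = 0.999). The difference between ATRA and LE540 kept its sign under all 19 alternatives, with adjusted p from 0.0291 to 0.199. It missed the threshold without ATRA replicate 1, 2 or 3 (adjusted p = 0.199, 0.129 and 0.164), without LE540 replicate 1 (-1.82, adjusted p = 0.175) or 3 (0.101), and without DMSO replicate 2 (0.121).

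The other genes of the trio had small differences between groups. Cxcl11 (10531420) had 5.91, 6.08 and 6.10 log2 units on ATRA arrays, 6.37, 6.39 and 6.20 on LE540 arrays and 6.18, 6.19 and 6.20 on DMSO arrays. The ATRA arrays were again the lowest, but by a small margin: ATRA minus LE540 was -0.29 log2 (SE 0.10, adjusted p = 0.364), and -0.27 without LE540 replicate 1 (adjusted p = 0.612). These values were near the floor: mean Cxcl11 intensity was 65.4 with ATRA, and the lower quartile of those arrays was 64.7 to 68.8. Signal over background is unknown at such levels. Cxcl9 stayed between 6.38 and 6.53 log2 units over all 9 arrays, with differences of -0.06, -0.08 and 0.02 log2 for ATRA minus DMSO, LE540 minus DMSO and ATRA minus LE540.

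**Figure D3:**
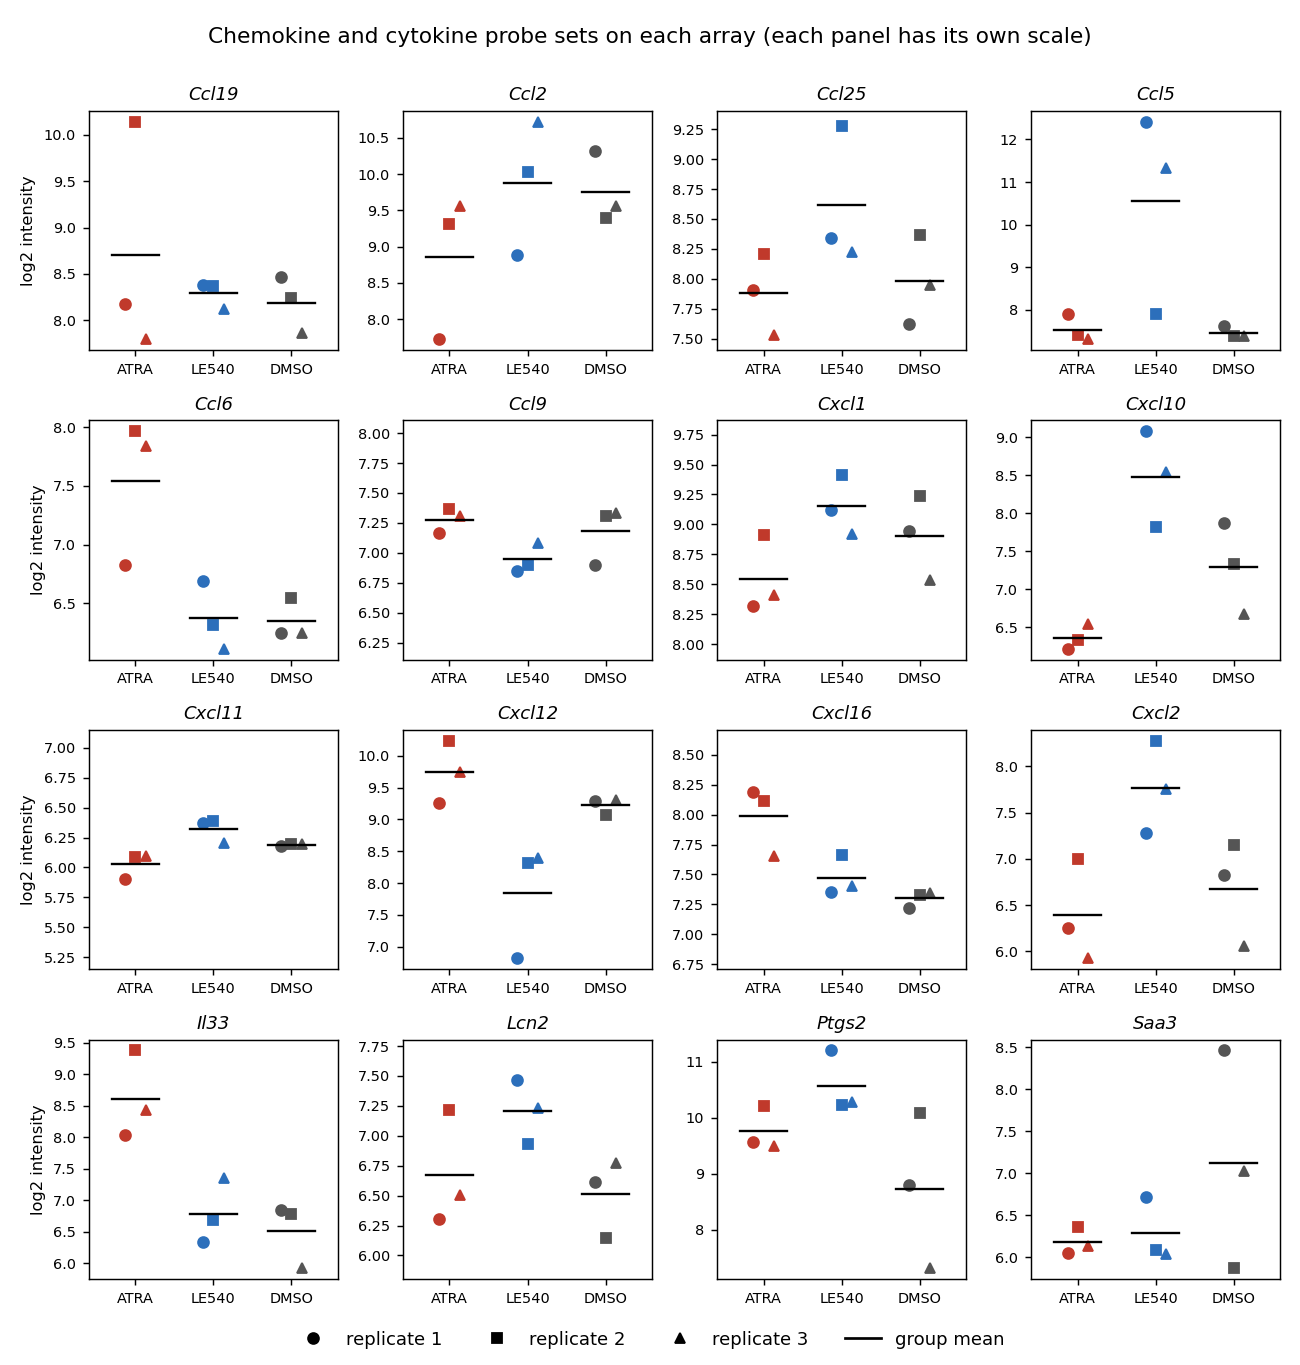
Log2 intensity on each array for the 16 member genes described with their own values (the first listed of 4 Ccl19 probe sets and the second of 2 Ccl25 probe sets), with ATRA in red, LE540 in blue, DMSO in grey, a symbol for each replicate number and a line for the group mean. Cxcl10 is lowest on all 3 ATRA arrays, Il33 is highest on all 3 ATRA arrays, and Ccl5 is high on LE540 replicates 1 and 3 alone.

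Cxcl1, Cxcl2, Cxcl3, Cxcl5 and Cxcl15 are ligands of CXCR2 that draw neutrophils, and they too lie on chromosome 5. The promoters of Cxcl1 (GRCm38.p6, chr5:90890995-90891244, plus strand) and Cxcl2 (chr5:90903649-90903898, plus strand) are shown because these related neighbours were both lower with ATRA than with LE540 on every array. For Cxcl1 the margin was narrow, 8.91 against 8.92 log2 units. Capitals mark the same run of letters in both promoters, in which NF-kB consensus matches on the plus and minus strands overlap. It lies at 71 to 61 bases upstream of the start in Cxcl1 and at 97 to 87 in Cxcl2.
Cxcl1: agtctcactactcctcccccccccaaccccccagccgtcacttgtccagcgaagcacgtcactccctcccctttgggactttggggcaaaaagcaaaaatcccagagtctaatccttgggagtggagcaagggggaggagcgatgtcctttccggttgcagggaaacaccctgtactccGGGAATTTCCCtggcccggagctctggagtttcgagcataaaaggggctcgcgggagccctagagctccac
Cxcl2: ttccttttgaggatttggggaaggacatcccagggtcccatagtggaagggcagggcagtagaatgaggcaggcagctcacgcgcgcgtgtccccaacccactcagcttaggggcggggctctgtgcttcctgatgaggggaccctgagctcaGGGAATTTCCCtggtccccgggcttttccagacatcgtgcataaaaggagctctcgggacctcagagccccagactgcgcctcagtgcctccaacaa

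Cxcl2 (10523156) had log2 intensities of 6.25, 6.99 and 5.92 on ATRA arrays, 7.28, 8.27 and 7.75 on LE540 arrays and 6.83, 7.15 and 6.05 on DMSO arrays. The LE540 arrays lay above all others, and replicate 2 was the highest array of each group. LE540 minus DMSO was 1.09 log2 (SE 0.37, adjusted p = 0.536) and 1.34 without LE540 replicate 1 (adjusted p = 0.834). ATRA minus LE540 was -1.38 (SE 0.37, adjusted p = 0.249). It was -1.03, -1.28 and -1.83 within replicate numbers 1, 2 and 3, and a block on the replicate number gave an adjusted p of 0.0696. Without LE540 replicate 1 the difference was -1.62 (adjusted p = 0.330).

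Cxcl1 (10523151) followed the same order of groups with smaller differences. It had 8.32, 8.91 and 8.41 log2 units on ATRA arrays, 9.12, 9.42 and 8.92 on LE540 arrays and 8.94, 9.24 and 8.54 on DMSO arrays. ATRA minus LE540 was -0.61 log2 (SE 0.22, adjusted p = 0.433), and -0.62 without LE540 replicate 1 (adjusted p = 0.658). LE540 and DMSO arrays overlapped. Cxcl5, Cxcl3 and Cxcl15 had no unadjusted p under 0.05. Cxcl5 spread widely inside each group, over 5.35 to 7.75 log2 units on ATRA arrays, 5.39 to 6.61 on LE540 arrays and 5.52 to 7.36 on DMSO arrays. Some neutrophil markers were weak: 5 of 12, Cxcr2, Ltf, Mmp8, Ngp and Retnlg, were below the lower quartile of every array. Summed marker intensity was 690 to 848 with ATRA, 748 to 1323 with LE540 and 702 to 732 with DMSO. With LE540 against DMSO, 10 of the 12 were higher (median 0.19 log2, 0 past the test), or 9 without LE540 replicate 1 (median 0.16). With ATRA against LE540, 8 were lower (median -0.10), or 6 without that array. S100a8 and S100a9 were 0.62 and 0.56 higher with LE540 than with DMSO (adjusted p = 0.641 and 0.796), or 0.87 and 1.16 without it. The highest marker sum was that of LE540 replicate 2, also the highest array for Cxcl2. The part of neutrophil content in these values was not tested.

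Ccl5 (10389207), the chemokine RANTES that attracts T cells and monocytes, had the widest spread inside a group. Its log2 intensity was 7.90, 7.40 and 7.31 on ATRA arrays, 12.41, 7.89 and 11.33 on LE540 arrays and 7.62, 7.38 and 7.39 on DMSO arrays. LE540 replicates 1 and 3 were far above every other array, and LE540 replicate 2 lay among the ATRA values and just above DMSO. Mean intensity was 189 ± 43.9 with ATRA, 2755 ± 2611 with LE540 and 177 ± 16.9 with DMSO (SD, n = 3 each). LE540 minus DMSO was 3.08 log2 (SE 0.94, 95% interval 0.96 to 5.21, adjusted p = 0.502) and ATRA minus LE540 was -3.01 (SE 0.94, adjusted p = 0.336).

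The calls for Ccl5 turned on LE540 replicate 2. Without that array LE540 minus DMSO was 4.41 log2 (adjusted p = 0.0108) and ATRA minus LE540 was -4.33 (adjusted p = 0.00394). Without LE540 replicate 1 the differences were 2.15 (adjusted p = 0.870) and -2.07 (adjusted p = 0.640). Lymphocytes are a known source of Ccl5. Of 12 lymphocyte markers 10 were measured, Cd3d, Cd3g, Ms4a1 and Ncr1 were below the lower quartile of every array, and the summed level was 682, 669.6 and 605 on LE540 replicates 1, 2 and 3, next to 601 to 664 on the ATRA arrays and 606 to 643 on the DMSO arrays. The Y-linked sum given above, which tracks the share of male pups in a pool, was also lowest on replicate 2 among the LE540 arrays. It was 1360 and 1411 on ATRA replicates 1 and 3, where Ccl5 was low. The part of pool composition in the Ccl5 values was not tested.

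Ccl6 (10389222) and Ccl9 (10389214) are rodent CCR1 ligands made mainly by myeloid cells, and they follow each other among the members on chromosome 11. Ccl6 had 6.83, 7.96 and 7.84 log2 units on ATRA arrays, 6.69, 6.31 and 6.11 on LE540 arrays and 6.25, 6.54 and 6.25 on DMSO arrays. All ATRA arrays lay above all others, with ATRA replicate 1 closest to them. ATRA minus DMSO was 1.20 log2 (SE 0.29, 95% interval 0.54 to 1.85, adjusted p = 0.565) and ATRA minus LE540 was 1.17 (SE 0.29, adjusted p = 0.205), and 1.33 without LE540 replicate 1 (adjusted p = 0.314). With weights per array the adjusted p was 0.0640 and 0.0854, and without ATRA replicate 1 the difference from LE540 was 1.53 (adjusted p = 0.0613).

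Ccl9 had 7.17, 7.36 and 7.30 log2 units on ATRA arrays, 6.85, 6.90 and 7.08 on LE540 arrays and 6.90, 7.31 and 7.33 on DMSO arrays, and ATRA minus LE540 was 0.33 log2 (SE 0.14, adjusted p = 0.488), and 0.29 without LE540 replicate 1 (adjusted p = 0.742). The summed macrophage markers overlapped between the groups, which Ccl6 did not. Their summed intensity over 18 genes was 2997, 5663 and 5848 on ATRA arrays, 4091 to 5655 with LE540 and 3416 to 6695 with DMSO, and 8 of 18 were higher with ATRA than with DMSO, 0 of them past the test. With ATRA against LE540, 12 of 18 were higher (median 0.10 log2, 0 past the test), and 6 of 18 without LE540 replicate 1 (median -0.16). Mpeg1, a pore-forming protein of macrophages, was 0.99 higher with ATRA than with LE540 (SE 0.39, adjusted p = 0.469), and Cd68 differed by -0.92 (SE 0.54, adjusted p = 0.641), or by 0.86 and -0.47 without that array. ATRA replicate 1 was the lowest array of all for the macrophage sum and the lowest ATRA array for Ccl6. Its Ccl6 value, 6.83 log2 units, still lay above every LE540 and DMSO array. DMSO replicate 3 had the highest macrophage sum of all, 6695, with Ccl6 at 6.25. The part of macrophage number in the Ccl6 values was not tested. Cd163, a marker of scavenging macrophages, was below the lower quartile of every array.

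Ccl2 (10379511), the main monocyte attractant of inflamed tissue, had 7.72, 9.31 and 9.55 log2 units on ATRA arrays, 8.89, 10.04 and 10.72 on LE540 arrays and 10.32, 9.39 and 9.56 on DMSO arrays. The groups overlapped, and ATRA replicate 1 was the lowest of all arrays. ATRA minus DMSO was -0.90 log2 (SE 0.57, adjusted p = 0.999), LE540 minus DMSO 0.12 (SE 0.57, adjusted p = 0.962) and ATRA minus LE540 -1.02 (SE 0.57, 95% interval -2.32 to 0.28, adjusted p = 0.623). With LE540 replicate 1 left out, LE540 minus DMSO was 0.62 (adjusted p = 0.896) and ATRA minus LE540 -1.52 (adjusted p = 0.598). Between ATRA and LE540 arrays of the same number the difference was -1.17, -0.73 and -1.17. The other inflammatory CC chemokines were Ccl3 and Ccl4, made by activated macrophages, Ccl7, Ccl8 and Ccl12, monocyte attractants near Ccl2 on chromosome 11, and the eosinophil attractants Ccl11, Ccl24 and Ccl26. Each had an unadjusted p over 0.05 in every comparison. Ccl3 varied over 6.60 to 7.61 log2 units on ATRA arrays, 6.32 to 7.87 on LE540 arrays and 6.80 to 8.07 on DMSO arrays. Ccl7 had 7.60 to 7.80 on ATRA arrays, 7.69 to 8.70 on LE540 arrays and 7.63 to 8.46 on DMSO arrays. These ranges overlapped. Ccl12 had 5.14 to 6.69 on ATRA arrays, 5.54 to 5.74 on LE540 arrays and 5.35 to 6.23 on DMSO arrays. Ccl4 had 6.89 to 7.15 on ATRA arrays, 6.80 to 7.88 on LE540 arrays and 6.90 to 7.31 on DMSO arrays. Ccl11, also called eotaxin, had 6.74 to 7.23 on ATRA arrays, 6.64 to 6.70 on LE540 arrays and 6.50 to 6.93 on DMSO arrays, and its ATRA arrays lay above its LE540 arrays by a narrow margin. Over all 12 genes of this kind, 6 were higher and 6 lower with ATRA than with DMSO, and 7 were higher and 5 lower with LE540 than with DMSO.

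The CC chemokines of lymphoid tissue and mucosa were represented by 12 probe sets of 7 genes, with 0 past the test in any comparison. Ccl19, a ligand of CCR7 that guides dendritic cells and naive T cells, had 5 probe sets, 2 of which (10504159 and 10512322) held identical values and are 1 measurement. Probe set 10504132 read 8.17, 10.14 and 7.80 log2 units on ATRA arrays, 8.38, 8.37 and 8.13 on LE540 arrays and 8.47, 8.24 and 7.86 on DMSO arrays. Probe set 10504159 and its duplicate read 7.83, 9.89 and 7.45 on ATRA arrays, 8.04, 8.11 and 7.78 on LE540 arrays and 8.19, 7.90 and 7.54 on DMSO arrays. Probe set 10504188 read 7.90, 9.92 and 7.54 on ATRA arrays, 8.06, 8.10 and 7.80 on LE540 arrays and 8.22, 7.94 and 7.60 on DMSO arrays. On probe set 10504132 ATRA replicate 2 alone was high, as it was on the 4 other Ccl19 probe sets, and the groups overlapped. ATRA minus DMSO was 0.51 log2 (SE 0.51, adjusted p = 0.999). The same array had the highest sum of 14 endothelial markers, 6803, with 2780 and 2864 on the other ATRA arrays, 1876 to 3927 with LE540 and 1897 to 4072 with DMSO. Whether Ccl19 followed the endothelial content of that pool was not tested.

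Ccl25, the CCR9 ligand of thymus and small intestine, had 2 probe sets that went the same way between ATRA and LE540. Probe set 10569958 read 6.44, 6.71 and 7.14 log2 units on ATRA arrays, 7.91, 7.73 and 7.07 on LE540 arrays and 7.58, 6.95 and 7.09 on DMSO arrays. Probe set 10569962 read 7.91, 8.21 and 7.53 on ATRA arrays, 8.34, 9.27 and 8.23 on LE540 arrays and 7.62, 8.37 and 7.95 on DMSO arrays. The second separated ATRA from LE540 completely and the first did not, since LE540 replicate 3 lay below ATRA replicate 3. ATRA minus LE540 was -0.80 log2 (SE 0.27, adjusted p = 0.372) for the first and -0.73 (SE 0.31, adjusted p = 0.500) for the second. The values without LE540 replicate 1 were -0.63 (adjusted p = 0.684) and -0.86 (adjusted p = 0.641). Ccl1, Ccl17, Ccl20, Ccl22 and Ccl28, ligands of CCR8, CCR4, CCR6, CCR4 and CCR10 in this order, had differences of -0.22 to 0.20 log2 over the 3 comparisons.

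Cxcl12 (10541075), the stromal ligand of CXCR4 and ACKR3 that retains and guides progenitor cells, had the largest difference among the 49 members in favour of ATRA over LE540, but not without LE540 replicate 1, when Il33 differed by 1.60 log2 and Cxcl12 by 1.39. Its log2 intensity was 9.26, 10.23 and 9.74 on ATRA arrays, 6.82, 8.32 and 8.40 on LE540 arrays and 9.29, 9.07 and 9.30 on DMSO arrays. All LE540 arrays lay below all others, and LE540 replicate 1 was the lowest. Mean intensity was 892 ± 296 with ATRA, 256 ± 124.8 with LE540 and 598 ± 53.3 with DMSO (SD, n = 3 each). LE540 minus DMSO was -1.38 log2 (SE 0.41, 95% interval -2.30 to -0.45, adjusted p = 0.497) and ATRA minus LE540 was 1.90 (SE 0.41, 95% interval 0.98 to 2.83, adjusted p = 0.151). Between ATRA and LE540 it was 2.45, 1.91 and 1.35 within replicate numbers 1, 2 and 3, and a block on the replicate number gave it an adjusted p of 0.0878.

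Without LE540 replicate 1, Cxcl12 differed by -0.86 log2 between LE540 and DMSO (adjusted p = 0.813) and by 1.39 between ATRA and LE540 (adjusted p = 0.146). Markers of valve interstitial cells and fibroblasts ran in the same order. The sum over 13 such genes was 29456 to 32572 with ATRA, 16028 to 25210 with LE540 and 22166 to 27511 with DMSO, with its minimum on LE540 replicate 1. Of the 13, 12 were higher with ATRA than with LE540, and Vcan, a proteoglycan of the valve matrix, passed the test at 1.29 log2 (adjusted p = 0.0608). Without LE540 replicate 1, 11 were higher and Vcan missed the threshold (1.27, adjusted p = 0.192). The part of interstitial cell content in the Cxcl12 values was not tested.

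Among the other CXC and CX3C chemokines, Cxcl16 (10387890), a transmembrane chemokine and scavenger receptor for oxidised lipid, had 8.19, 8.11 and 7.66 log2 units on ATRA arrays, 7.36, 7.66 and 7.40 on LE540 arrays and 7.22, 7.33 and 7.35 on DMSO arrays. The ATRA arrays lay above DMSO without overlap, and ATRA replicate 3 was level with the highest LE540 array. ATRA minus DMSO was 0.69 log2 (SE 0.15, 95% interval 0.34 to 1.04, adjusted p = 0.471), and ATRA minus LE540 was 0.51 (SE 0.15, adjusted p = 0.317), with 0.46 without LE540 replicate 1 (adjusted p = 0.609). Cxcl13, which organises B cell follicles, Cxcl14, an epithelial and stromal chemokine, Cxcl17 of mucosal tissue and the membrane-bound Cx3cl1 had no unadjusted p under 0.05. Cxcl14 had 6.71 to 7.54 log2 units on ATRA arrays, 6.57 to 7.04 on LE540 arrays and 6.87 to 7.08 on DMSO arrays, and Cx3cl1 had 7.61 to 7.80, 7.50 to 7.82 and 7.73 to 8.07 on ATRA, LE540 and DMSO arrays, with overlap throughout. Cxcl17 had 7.47 to 7.67 on ATRA arrays and 7.36 to 7.55 on LE540 arrays, and the LE540 range ended just under the 7.55 to 7.64 of DMSO arrays. Between ATRA and LE540 all 6 genes of this kind were higher with ATRA, by 0.01 to 1.90 log2, with 0 past the test.

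Il33 (10462442), a nuclear alarmin of endothelial and stromal cells that signals through ST2, had the largest difference from DMSO among the members on ATRA arrays. Its log2 intensity was 8.03, 9.38 and 8.42 on ATRA arrays, 6.33, 6.68 and 7.35 on LE540 arrays and 6.84, 6.79 and 5.92 on DMSO arrays. Every ATRA array lay above every other array. Mean intensity was 423 ± 213 with ATRA, 115 ± 42.8 with LE540 and 95.2 ± 30.1 with DMSO (SD, n = 3 each). ATRA minus DMSO was 2.09 log2 (SE 0.40, 95% interval 1.18 to 3.01, adjusted p = 0.273), with 1.19, 2.59 and 2.50 within replicate numbers 1, 2 and 3. ATRA minus LE540 was 1.82 (SE 0.40, adjusted p = 0.156) and 1.60 without LE540 replicate 1 (adjusted p = 0.423). With weights per array the difference from DMSO had an adjusted p of 0.0685.

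Endothelial markers were higher on ATRA than on DMSO arrays in 14 of 14 genes, with a median of 0.40 log2 and 0 past the test, and ATRA replicate 2 had the highest level of both Il33 and the endothelial sum. Across groups the order differed. The endothelial sum was 4072 on DMSO replicate 2 and 3927 on LE540 replicate 2, where Il33 was 6.79 and 6.68 log2 units. It was lower, 2780 and 2864, on ATRA replicates 1 and 3, where Il33 was 8.03 and 8.42. Without ATRA replicate 2, Il33 was 1.71 log2 higher with ATRA than with DMSO (adjusted p = 0.349). The part of endothelial content in the Il33 values was not tested. The other cytokines were the interleukin-1 pair Il1a and Il1b, the gp130 ligands Il6, Il11 and Lif, and Tnf. Il1a and Il6 had means below the lower quartile of all tested probe sets, where signal over background is unknown. Il6 had 4.42 to 5.38 log2 units on ATRA arrays, 4.02 to 5.41 on LE540 arrays and 4.08 to 4.53 on DMSO arrays. Il1b had 6.33 to 6.84 on ATRA arrays, 6.32 to 6.86 on LE540 arrays and 6.26 to 6.63 on DMSO arrays. Il11 spread over 6.13 to 7.75 on ATRA arrays, 6.26 to 8.06 on LE540 arrays and 6.45 to 7.13 on DMSO arrays. Lif had 6.42 to 6.86 on ATRA arrays, 6.35 to 6.57 on LE540 arrays and 6.01 to 7.21 on DMSO arrays, so its DMSO arrays bracketed both treatments. Tnf had 5.92 to 6.64 on ATRA arrays, 6.18 to 6.42 on LE540 arrays and 6.37 to 6.76 on DMSO arrays. None of these 6 had an unadjusted p under 0.05 in any comparison, and their groups overlapped in each.

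Ptgs2 (10350516) encodes the inducible cyclooxygenase, which starts prostaglandin synthesis. It had 9.57, 10.22 and 9.49 log2 units on ATRA arrays, 11.20, 10.23 and 10.28 on LE540 arrays and 8.79, 10.09 and 7.32 on DMSO arrays. LE540 arrays lay above all others, and the DMSO arrays differed among themselves by 2.78 log2. LE540 minus DMSO was 1.84 log2 (SE 0.61, 95% interval 0.45 to 3.22, adjusted p = 0.529) and 1.52 without LE540 replicate 1 (adjusted p = 0.870). It was 2.41, 0.14 and 2.96 between the arrays numbered 1, 2 and 3, which were not taken as pairs for LE540 and DMSO. ATRA minus DMSO was 1.03 (SE 0.61, adjusted p = 0.999). Both values turned on the DMSO arrays: without DMSO replicate 2 they were 2.52 (adjusted p = 0.353) and 1.71 (adjusted p = 0.900), and without DMSO replicate 3 they were 1.13 (adjusted p = 0.725) and 0.32 (adjusted p = 0.999).

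Lcn2 (10481627), which withholds iron from bacteria, had 6.31, 7.21 and 6.51 log2 units on ATRA arrays, 7.47, 6.93 and 7.23 on LE540 arrays and 6.62, 6.14 and 6.77 on DMSO arrays. LE540 arrays lay above DMSO without overlap, by 0.70 log2 (SE 0.26, adjusted p = 0.541), and by 0.57 without LE540 replicate 1 (adjusted p = 0.870). Saa3 (10563597), an acute phase protein of activated macrophages and stroma, had 6.05, 6.36 and 6.14 log2 units on ATRA arrays, 6.72, 6.09 and 6.04 on LE540 arrays and 8.46, 5.87 and 7.03 on DMSO arrays. DMSO replicate 1 alone reached 8.46, and the groups overlapped (ATRA minus DMSO -0.94 log2, SE 0.54, adjusted p = 0.999). Without DMSO replicate 1 the difference was -0.27, and without DMSO replicate 2 it was -1.57. Nos2, the inducible nitric oxide synthase of activated macrophages, stayed between 6.41 and 6.84 over all arrays.

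The 29 probe sets not given array by array were those of Ccl1, Ccl3, Ccl4, Ccl7, Ccl8, Ccl11, Ccl12, Ccl17, Ccl20, Ccl22, Ccl24, Ccl26, Ccl28, Cx3cl1, Cxcl3, Cxcl5, Cxcl9, Cxcl13, Cxcl14, Cxcl15, Cxcl17, Il1a, Il1b, Il6, Il11, Lif, Nos2, Tnf and the fifth Ccl19 probe set. Their differences ran from -0.51 to 0.53 log2 for ATRA minus DMSO, from -0.40 to 0.51 for LE540 minus DMSO and from -0.38 to 0.61 for ATRA minus LE540. Their lowest adjusted p was 0.527. Of all 49 member probe sets, 6 had a mean below the lower quartile of tested probe sets, 22 lay between the lower quartile and the median and 21 above the median. The 6 dim ones were Ccl8, Ccl12, Cxcl13, Cxcl15, Il1a and Il6.

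The receptors and pathways around these ligands were read from fixed gene lists. Of 21 chemokine receptors 20 were measured, and 0 passed in any comparison. Ackr3, a scavenging receptor for Cxcl12, was 1.55 log2 higher with ATRA than with DMSO (SE 0.57, adjusted p = 0.986) and 1.31 higher than with LE540 (adjusted p = 0.519), or 0.87 without LE540 replicate 1. Cxcr4, the signalling receptor for Cxcl12, differed by 0.48 (SE 0.67, adjusted p = 0.999) and 0.72 (SE 0.67, adjusted p = 0.781), or 0.12 without LE540 replicate 1. Cxcr2, the receptor of the neutrophil chemokines, was below the lower quartile of every array. Of 12 cytokine receptors and decoys 9 were measured and 0 passed. Tnfrsf1b, a receptor for Tnf, was 0.55 log2 higher with ATRA than with DMSO (SE 0.13, adjusted p = 0.508), and Lifr, the receptor for Lif, was 0.64 lower (log2 difference -0.64, SE 0.25, adjusted p = 0.999). Il6st, the shared gp130 chain, was 0.53 higher with ATRA than with LE540 (SE 0.14, adjusted p = 0.256), with and without LE540 replicate 1.

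Of 24 genes of the NF-kB pathway and its feedback 22 were measured and 0 passed. With LE540 against DMSO, 13 were higher and 9 lower, and with ATRA against LE540, 8 were higher and 14 lower. The inhibitors Nfkbia and Nfkbib, which hold NF-kB in the cytoplasm, differed by -0.76 (SE 0.26, adjusted p = 0.385) and -0.79 log2 (SE 0.32, adjusted p = 0.474) between ATRA and LE540, or by -0.52 and -0.40 without LE540 replicate 1. The counts were then 12 higher and 10 lower with LE540 against DMSO, and 10 higher and 12 lower with ATRA against LE540. Among 10 feedback and cytokine-induced regulators, 9 were higher with LE540 than with DMSO, with a median of 0.26 log2, and 9 were lower with ATRA than with LE540, with a median of -0.23 and 0 past the test. The median over all probe sets was 0.02 and -0.03 in these comparisons. Without LE540 replicate 1, 7 of the 10 were higher with LE540 than with DMSO (median 0.23) and 7 were lower with ATRA than with LE540 (median -0.04). Ier3, an early response gene induced by NF-kB, was 0.79 higher with LE540 than with DMSO (SE 0.39, adjusted p = 0.591), or 0.50 without LE540 replicate 1. Socs2, a suppressor of cytokine signalling, differed by -0.57 between ATRA and LE540 (SE 0.29, adjusted p = 0.586), or by -0.65 without that array. Cebpb, a transcription factor of the acute phase response, was 0.43 higher with LE540 than with DMSO (SE 0.16, adjusted p = 0.541), or 0.22 without it, and Zfp36, which destabilises cytokine mRNAs, was lower with ATRA than with LE540 (log2 difference -0.37, SE 0.13, adjusted p = 0.380), or by -0.43 without it.

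The prostaglandin pathway around Ptgs2 had 13 of 14 genes measured and 0 past the test. With LE540 against DMSO, 7 were higher and 6 lower (median 0.05 log2), and the split was the same without LE540 replicate 1 (median 0.03). The 2 genes with the largest differences were the following. Pla2g4a, the phospholipase that releases arachidonic acid, was 0.84 log2 higher with LE540 than with DMSO (SE 0.20, adjusted p = 0.389), and Hpgd, which degrades prostaglandins, was lower (log2 difference -1.04, SE 0.46, adjusted p = 0.565). These values were 0.78 and -0.57 without LE540 replicate 1. Of 17 complement components and regulators 14 were measured and 0 passed. With ATRA against LE540, 12 of the 14 were higher, with a median of 0.44 log2, or 0.26 without LE540 replicate 1. Serping1, the C1 inhibitor, was 1.71 higher with ATRA than with LE540 (SE 0.47, adjusted p = 0.264), 1.43 higher without that array, and 1.31 higher than with DMSO (SE 0.47, adjusted p = 0.985). C3ar1, a receptor for a complement fragment, differed by -1.37 between LE540 and DMSO (SE 0.63, adjusted p = 0.574), or by -0.53 without it. Of 10 other acute phase and innate secreted proteins 9 were measured. Cp, the copper oxidase ceruloplasmin, rose by 2.67 log2 with ATRA against LE540 (SE 0.25, adjusted p = 0.00791) and by 2.73 without LE540 replicate 1 (adjusted p = 0.0362), and it alone of this list passed. Most of the list went the other way: with ATRA against LE540, 3 of the 9 were higher and 6 lower (median -0.30 log2, or -0.14 without LE540 replicate 1). With ATRA against DMSO, 2 were higher and 7 lower (median -0.02).

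**Figure D4:**
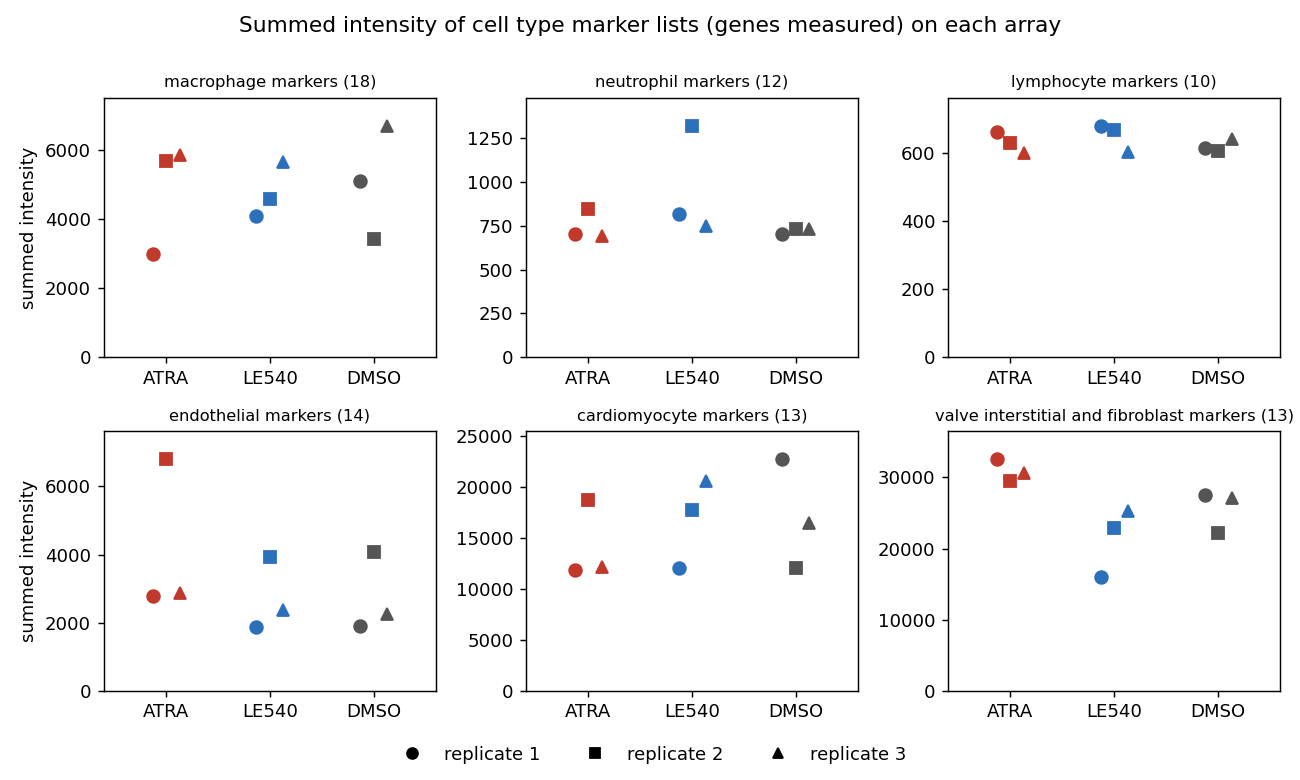
Summed intensity of 6 cell type marker lists on each array, with ATRA, LE540 and DMSO from left to right, a symbol for each replicate number and every axis starting at 0. The valve interstitial and fibroblast sum is highest on the ATRA arrays and lowest on LE540 replicate 1, the endothelial sum is highest on replicate 2 of every group, and the macrophage sums of the groups overlap.

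Cardiomyocyte markers, which show heart muscle carried along with the valve, were present on every array. Their sum over 13 genes was 11888 to 18786 with ATRA, 12042 to 20655 with LE540 and 12057 to 22770 with DMSO. These sums overlapped, but 12 of the 13 genes were lower with ATRA than with DMSO (median -0.28 log2) and 11 lower with ATRA than with LE540 (median -0.46, or 13 with a median of -0.67 without LE540 replicate 1), with 0 past the test. Myl7, an atrial myosin light chain, differed by -0.99 between ATRA and LE540 (SE 0.31, adjusted p = 0.351), or by -0.94 without that array. The part of heart muscle content in the members' values was not tested. Of 9 mesothelial and epithelial markers, Krt18, a keratin of simple epithelia, alone passed: it rose by 1.82 log2 with ATRA against DMSO (adjusted p = 0.0808) and by 1.83 against LE540 (adjusted p = 0.0313), or 1.72 without LE540 replicate 1 (adjusted p = 0.105). The list as a whole moved little: 6 of the 9 were higher and 3 lower with ATRA than with DMSO (median 0.05 log2). Against LE540 the split was also 6 and 3 (median 0.08), or 7 and 2 without LE540 replicate 1 (median 0.13). Mast cell markers summed to 759 to 996.6 with ATRA, 653 to 789.6 with LE540 and 734 to 786 with DMSO over 9 genes, 2 of which, Fcer1a and Ms4a2, were below the lower quartile of every array. Of the 13 valve interstitial and fibroblast markers, which define the labelled tissue, 0 were below the lower quartile on every array.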

How the data were processed

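Total RNA of pooled valve explants was amplified, biotin-labelled and hybridised to 9 one-colour arrays, 3 per group, per the labels' protocols. The deposited values are intensity values on a linear scale (4.09 to 17798), made by the authors with Affymetrix Expression Console 1.1 and RMA, which corrects background, normalizes by quantiles and summarises probes, per the submitters' processing notes. The annotation and genome build behind them are not given in the sources used here. An array has no count depth, and the number of arrays limits precision.

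The table held 28270 rows. The platform's probe annotation paired 23397 of them with a gene symbol (21780 with 1, 1617 with several), and these were tested. The other 4873 were left out. The members' Entrez identifiers were found in the RefSeq gene table for 49 of 49 probe sets, with 0 symbols differing. The log2 of the deposited intensity was fitted in R 4.3.3 with a limma 3.58.1 model of 3 groups on all 9 arrays with moderated variances (6 residual and 2.72 prior degrees of freedom), two-sided, Benjamini-Hochberg adjusted over all tested probe sets. The threshold of 0.1 and the 2-fold subset follow the series' design text. All adjusted p-values are limma's. The verbs rose and fell stand for passing genes alone. Tested on simulated data, in which 200 of 23397 probe sets changed, the fit for ATRA against LE540 recovered 37.3% of 1.5-fold, 67.2% of 2-fold and 95.5% of 4-fold changes, with 10 false calls among 143. False calls were 19 among 156 for ATRA against DMSO and 19 among 153 for LE540 against DMSO. The simulated noise was independent between arrays, with no outlying array and no shared deviations of same-numbered arrays. Recovery and false calls in the real data may therefore differ.

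Same-numbered arrays were checked for shared deviations from their group means. The correlation was 0.143, 0.342 and 0.220 for ATRA and DMSO, 0.00946, 0.215 and 0.126 for LE540 and DMSO, and 0.261, 0.282 and 0.269 for ATRA and LE540. The numbers were therefore taken to pair the ATRA arrays with the DMSO and with the LE540 arrays, from the data and not from a stated shared litter or day, and blocked values are given where they change a call.

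Values on every array are given for members that passed, had an unadjusted p under 0.05, were among the 10 with the highest mean or among the 5 largest changes of a comparison. The others are given by ranges. From each gene list, members that passed or else up to 2 with the largest change of a comparison are named. This was not done for the endothelial, lymphocyte, mast cell and Y-linked lists. Cxcr2, Cebpb, Zfp36, Il6st and the dim markers were named in addition after their values were seen. The members, roles and lists were chosen with earlier results of these data known, so a list's count is a description. Promoters of 250 bases come from RefSeq (GRCm38.p6), matched by symbol, and motifs were searched on both strands. Alternatives covered the arrays fitted, the replicate block, array weights, thresholds, normalization, the variance prior, the log scale, dim probe sets filtered out, and each array left out in turn. Gene lists without LE540 replicate 1 were added after seeing the data.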

Additional observations from a re-analysis of the deposited data

How the results depend on the processing

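Of 24 gene differences recomputed 448 times in all under the alternatives, 0 reversed their sign, 429 values kept their side of the threshold, 11 passed it newly and 8 no longer passed it. The 8 were all of Cxcl10 between ATRA and LE540, which also missed the threshold when only the 6 arrays compared were fitted (adjusted p = 0.142) or with array weights (0.144). The number of members past the test in ATRA against LE540 was 1. It was 0 with only the 6 arrays compared and at an adjusted p under 0.05, 2 with array weights (Ccl6 and Cxcl12), and 3 with the replicate block (Cxcl2, Cxcl10 and Cxcl12). It ran from 0 to 2 with an array left out: 0 without ATRA replicate 2 or 3, LE540 replicate 1 or DMSO replicate 2, and 2 without LE540 replicate 2 (Ccl5 and Cxcl10) or 3 (Il33 and Cxcl12). Without ATRA replicate 1 the 1 member was Ccl6. In ATRA against DMSO the number was 0, 0 with the replicate block, 2 with array weights (Ccl6 and Il33) and 0 to 0 with an array left out. In LE540 against DMSO it was 0, 0 with the replicate block and 0 to 1 with an array left out, the 1 being Ccl5 without LE540 replicate 2. The replicate block changed no other call of a member. Over all tested probe sets the number past the test ran from 4 to 71 in ATRA against DMSO (19), from 0 to 297 in LE540 against DMSO (7) and from 25 to 278 in ATRA against LE540 (141). Counts of members with an unadjusted p under 0.05, an alternative measure chosen after seeing the data, ran from 3 to 6, 4 to 8 and 9 to 14 in the 3 comparisons. The cause of these shifts was not tested, beyond the stricter limit or the smaller number of arrays that some alternatives impose. Signal over background is unknown for the 6 members with means below the lower quartile.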
